A study of Homo sapiens with 12 samples.

Results

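IGSF9B, CTTNBP2 and LNPEP are 3 of the 28395 genes in a normalized RNA sequencing table of sorted KG1a cells, and all 3 were among the 15057 genes expressed highly enough to be tested. They were chosen by symbol, because in this same table the difference between bright and dim cells was wider at 3% oxygen than in normoxia. The values that chose them are therefore given below as a description, with no test. KG1a is an established human cell line of immature acute myeloid leukaemia cells that carry CD34. Dim cells were CD34-positive cells low on the surface for both CD38 and CLL-1, and bright cells were CD34-positive cells high for both. Each subset was taken from normoxia or from hypoxia at 3% oxygen, which gave 4 groups of 3 libraries each, called normoxic dim and normoxic bright, and hypoxic dim and hypoxic bright. All groups were of the 1 wild-type line in RPMI medium with serum, with no genetic change, and 1 batch label covered all 12 libraries. No label tells whether replicates came from separate cultures, so p-values measure the spread between these libraries, which may be technical.

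IGSF9B is a cell surface protein of the immunoglobulin superfamily that, in rodent neurons, sits at inhibitory synapses and links to the neuroligin scaffold. CTTNBP2 binds the actin regulator cortactin and the striatin family of phosphatase scaffolds, and in rodent neurons it shapes dendritic spines. LNPEP, also called insulin-regulated aminopeptidase or oxytocinase, is a membrane zinc peptidase of the M1 family that cuts peptide hormones, trims antigenic peptides in endosomes and travels with the glucose transporter GLUT4 in storage vesicles.

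The values are the authors' normalized values, read counts scaled for library size and rounded to whole numbers. They summed to 31828256 to 32560463 per library. From the spacing of the rounded values, 1 read was worth an estimated 0.815 to 1.27 units. Dividing the sums by these units gave an estimated 25200000 to 39500000 reads counted in each library. The fit of the unit was weak in some libraries (correlation 0.118 to 0.747), so both estimates are rough. The 7 KG1a markers summed to 56194 to 84321 in every library, and CD34 lay between 17184 and 32370. CD38 averaged 5 in normoxic dim, 69.7 in normoxic bright, 15.7 in hypoxic dim and 142 in hypoxic bright, higher in bright cells at either oxygen level. CLEC12A, the gene of CLL-1, was low throughout, at 9 to 40, and its means of 18.3, 13.3, 21.0 and 20.3 in the same order were not higher in bright cells, so this transcript did not follow the sort. Of 17 neuronal markers, 7 stayed under 10 in all libraries, among them GAD2 at 0, while RBFOX3 reached at most 29 and SNAP25 at most 23. Others were present: MAP2 lay at 121 to 238, TUBB3 at 54 to 203, DLG4 at 37 to 120 and SYP at 21 to 84. GAD1 gave 5711 to 7806 of a list sum of 6122 to 8280. Some libraries stood apart by transcripts of other tissues. The 15 airway epithelial markers, among which SCGB1A1 and SCGB3A1 were at 0, summed to 29 to 48 in normoxic dim, 210 to 6749 in normoxic bright, 1023 to 16519 in hypoxic dim and 33 to 1017 in hypoxic bright. The 18 skeletal muscle markers summed to 881 to 4185, 141 to 2826, 210 to 376 and 98 to 175 in the same order of groups. The 6 neutrophil granule markers summed to 77 to 172, 199 to 1764, 80 to 15182 and 47 to 57. Their part in the results below was not tested beyond a fit with the 3 sums as covariates, whose values are given with the results they move.

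IGSF9B had by far the highest level of the 3 genes and the widest change of the gap with oxygen. Its gene (ID 22997) lies on the minus strand at chr11:133908302-133956963 of hg38, with 22 exon intervals in the authors' annotation that cover 5892 bases, or 12.1% of its span. The normoxic dim libraries had normalized values of 1027, 2310 and 1265 in replicates 1, 2 and 3. The normoxic bright libraries had 2546, 1452 and 1400. These groups overlapped, and in each of them 1 library, replicate 2 of the dim and replicate 1 of the bright, stood well above its other replicates. The hypoxic dim libraries had 791, 533 and 728, all below every normoxic library. The hypoxic bright libraries had 3722, 4445 and 2791, all above every other library. In a bulk sample, fewer cells that carry a transcript and less of it per cell cannot be told apart.

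The mean level of IGSF9B was thus highest in hypoxic bright cells at 3653 ± 829 (SD, n = 3), followed by normoxic bright at 1799 ± 647, normoxic dim at 1534 ± 683 and hypoxic dim at 684 ± 135. Only the normoxic bright and normoxic dim groups, which are neighbours in this order, overlapped. The fitted bright to dim gap was 0.26 ± 0.29 on the log2 scale (standard error) in normoxia, a 1.2-fold difference, and 2.41 ± 0.29 at 3% oxygen, a 5.31-fold difference. The gap was wider by 2.15 ± 0.41 log2 units at 3% oxygen. Both subsets contributed, in opposite directions: the level was 2.14-fold lower at 3% oxygen than in normoxia in dim cells (log2 -1.10 ± 0.29) and 2.07-fold higher in bright cells (log2 1.05 ± 0.29). The small normoxic gap depended on single libraries, being 0.60 when normoxic dim replicate 2 was left out and -0.02 when normoxic bright replicate 1 was.

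LNPEP, at a lower level, also had its lowest values in hypoxic dim libraries and its highest mean in hypoxic bright cells. Its gene (ID 4012) lies on the plus strand at chr5:96935642-97029411, with 19 exon intervals that cover 4795 bases, or 5.11% of its span. The normoxic dim libraries had values of 336, 718 and 398, and the normoxic bright libraries 531, 317 and 379. Again the normoxic groups overlapped, and again normoxic dim replicate 2 and normoxic bright replicate 1 were the high libraries. The hypoxic dim libraries had 274, 200 and 257, below every other library. The hypoxic bright libraries had 727, 751 and 600, above every normoxic bright and every hypoxic dim library. Of these, only replicate 3 lay below normoxic dim replicate 2.

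The mean level of LNPEP was 693 ± 81.1 (SD, n = 3) in hypoxic bright, 484 ± 205 in normoxic dim, 409 ± 110 in normoxic bright and 244 ± 38.8 in hypoxic dim cells. The hypoxic bright and normoxic dim groups overlapped, as did the normoxic dim and normoxic bright groups, while normoxic bright and hypoxic dim did not. The bright to dim gap of LNPEP was -0.20 ± 0.25 on the log2 scale in normoxia, where bright cells were 1.15-fold lower, and 1.51 ± 0.25 at 3% oxygen, where they were 2.85-fold higher. The gap thus differed by 1.71 ± 0.36 log2 units. Dim cells were 1.89-fold lower (log2 -0.92 ± 0.25) and bright cells 1.72-fold higher (log2 0.79 ± 0.25) at 3% oxygen than in normoxia. Without normoxic dim replicate 2 the normoxic gap was 0.13, of the other sign.

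CTTNBP2 behaved differently from the other 2 genes, since its gap was already open in normoxia. Its gene (ID 83992) lies on the minus strand at chr7:117710648-117873507, with 27 exon intervals that cover 6994 bases, or 4.29% of its span. The normoxic dim libraries had values of 43, 50 and 49, and the normoxic bright libraries 118, 163 and 228. The hypoxic dim libraries had 55, 41 and 36, and the hypoxic bright libraries 216, 247 and 282. Every bright library lay above every dim library at either oxygen level. The normoxic and hypoxic dim groups overlapped, and so did the normoxic and hypoxic bright groups, through the single normoxic value of 228.

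Mean CTTNBP2 levels were 248 ± 33.0 (SD, n = 3) in hypoxic bright, 170 ± 55.3 in normoxic bright, 47.3 ± 3.79 in normoxic dim and 44.0 ± 9.85 in hypoxic dim cells. The gap was 1.77 ± 0.24 on the log2 scale in normoxia, a 3.42-fold difference, and 2.48 ± 0.24 at 3% oxygen, a 5.59-fold difference. It was wider by 0.71 ± 0.34 log2 units at 3% oxygen. In dim cells the level at 3% oxygen was 1.09-fold lower than in normoxia (log2 -0.12 ± 0.24), and in bright cells 1.51-fold higher (log2 0.59 ± 0.24). Dim libraries held between 36 and 55 units of CTTNBP2, so few reads that counting error alone limits how well a small change there could be seen.

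**Figure D1:**
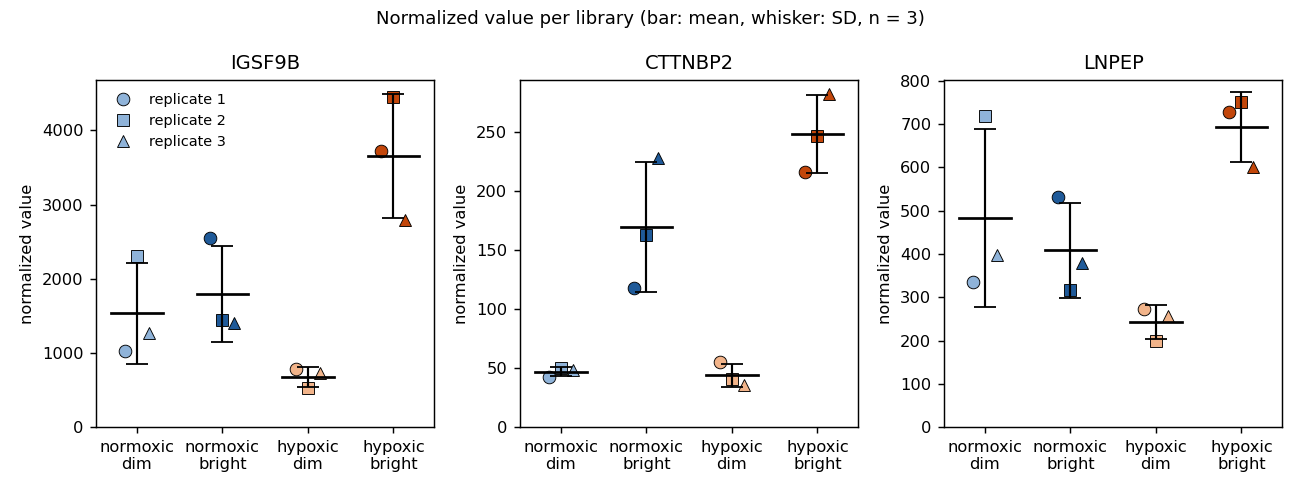
Normalized value (vertical axis, starting at 0, a separate scale for each gene) of IGSF9B, CTTNBP2 and LNPEP in each of the 12 libraries by group, with the group mean as a bar and the SD as a whisker (n = 3); marker shapes give the replicate number. Hypoxic bright libraries are the highest group for all 3 genes; for IGSF9B and LNPEP the normoxic groups overlap and hypoxic dim is lowest, while for CTTNBP2 both dim groups lie at or under 55.

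The places of the 3 genes among all genes are a description, since a high rank in the difference follows from how they were chosen. Counted from the highest of 15057 genes, IGSF9B ranked 53, LNPEP 126 and CTTNBP2 938 by the difference of the gaps. Among the 11089 tested genes with a mean of at least 100 they ranked 4, 9 and 301. In the gap at 3% oxygen CTTNBP2 ranked 11, IGSF9B 14 and LNPEP 118, and in the gap in normoxia 285, 2234 and 11771. By limma, 165 of the 15057 genes (1.1%) passed as wider upwards at an adjusted p under 0.05, and 190 (1.26%) passed in the other direction, 2.36% in all. Leaving out 1 library moved the total of 355 to between 44 (without hypoxic bright replicate 1) and 1516 (without hypoxic dim replicate 3), and with the length trend described below removed, 43 passed upwards and 145 downwards. The 3 genes were chosen on this contrast, so nothing is read from their place in these counts. The opposite movement of IGSF9B and LNPEP, with every hypoxic bright library above every normoxic bright one and every hypoxic dim library below every normoxic dim one, was found for 252 genes (1.67%). All 3 genes had every hypoxic bright library above every hypoxic dim one, as had 2892 genes (19.2%). CTTNBP2 was the only one of the 3 with every normoxic bright library above every normoxic dim one, as had 1813 genes (12%).

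The average of the oxygen effect over both subsets is a contrast that the choice did not use, although it shares the residual spread with those that it did. None of the 3 genes passed it. Averaged over dim and bright cells, IGSF9B differed by -0.02 ± 0.21 log2 units between 3% oxygen and normoxia (limma, adjusted p = 0.985). LNPEP differed by -0.07 ± 0.18 (limma, adjusted p = 0.934) and CTTNBP2 by 0.23 ± 0.17 (limma, adjusted p = 0.703). For IGSF9B and LNPEP this is the sum of a lower level in dim and a higher level in bright cells, of nearly equal size, and the sign turned when single libraries were left out. In the same contrast 28 genes (0.186%) passed as higher and 6 (0.0398%) as lower, 0.226% in all.

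IGSF9B and LNPEP also shared most of their extreme libraries within groups. The library with the highest value within its group was the same for both genes in 4 of 4 groups, and the lowest in 3 of 4. How many other gene pairs share as many was not counted. The genes most like either gene, named below, were highest in the same normoxic libraries, so this is not particular to the pair. CTTNBP2 shared its highest library with IGSF9B in 2 of 4 groups and its lowest in 1 of 4, and the same counts held for CTTNBP2 and LNPEP. Ranked over 12 libraries, hypoxic dim replicates 1, 2 and 3 held ranks 3, 1 and 2 from the lowest for IGSF9B and for LNPEP. Normoxic dim replicate 2 held rank 8 for IGSF9B and rank 10 for LNPEP.

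The ratio of the genes per kilobase of exon did separate the subsets. Per kilobase, IGSF9B had 2.49, 2.62 and 2.59 times the level of LNPEP in the normoxic dim libraries and 2.35, 2.17 and 2.31 times in the hypoxic dim libraries. In the normoxic bright libraries the ratio was 3.90, 3.73 and 3.01, and in the hypoxic bright libraries 4.17, 4.82 and 3.79. Every bright library thus had a higher ratio than every dim library at either oxygen level, although in normoxia neither gene had such a gap by itself. The values at 3% oxygen and in normoxia were both used to choose the 2 genes. It was not counted how many other pairs of genes separate the subsets in this way, so the ratio is a description. Per kilobase, IGSF9B exceeded CTTNBP2 by 7.29-fold in normoxic bright replicate 3 and by up to 54.8-fold in normoxic dim replicate 2. Mean levels per kilobase in hypoxic bright cells were 620 ± 141 (SD, n = 3) for IGSF9B, 145 ± 16.9 for LNPEP and 35.5 ± 4.72 for CTTNBP2.

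**Figure D2:**
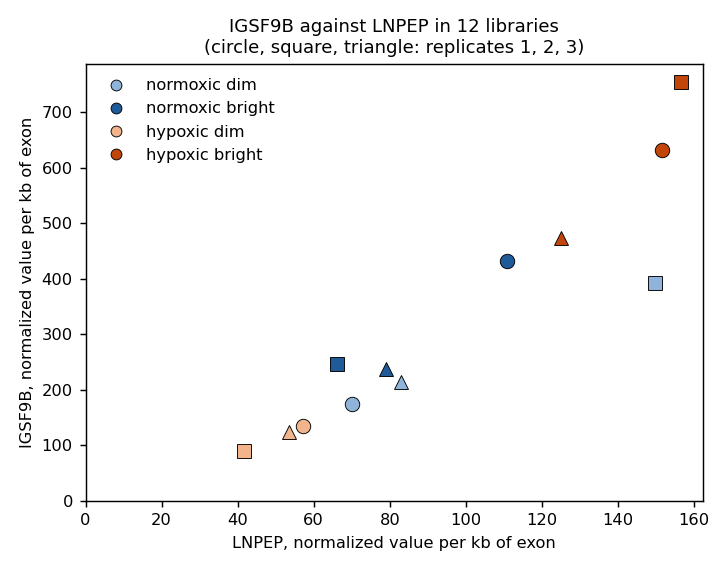
IGSF9B (vertical axis) against LNPEP (horizontal axis) in normalized units per kilobase of exon, 1 point per library, with colour for the group and shape for the replicate. Libraries that are high for one gene are high for the other, and each dim library lies lower in IGSF9B than bright libraries of similar LNPEP, with ratios of at most 2.62 in dim and at least 3.01 in bright libraries.

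Markers of other tissues had their extremes in some of the same libraries. Hypoxic dim replicate 2, the lowest library of all for IGSF9B and LNPEP, had the highest airway epithelial sum at 16519. In contrast, hypoxic bright replicate 2, with the highest airway sum of its group at 1017, was the highest of its group for IGSF9B and LNPEP. Hypoxic dim replicate 1, the highest of its group for all 3 genes, had the highest granule sum at 15182. But normoxic bright replicate 3, with the highest granule sum of its group at 1764, was the lowest of its group for IGSF9B and the highest for CTTNBP2. Normoxic dim replicate 1, the lowest of its group for all 3 genes, had the highest muscle sum at 4185, but normoxic bright replicate 1, with the highest muscle sum of its group at 2826, was the highest of its group for IGSF9B and LNPEP. With the 3 marker sums as covariates, which left 5 residual degrees of freedom, the gap of IGSF9B was -0.15 ± 0.60 in normoxia and 3.11 ± 0.60 at 3% oxygen, and its difference 3.26 ± 1.09. For LNPEP the difference was then 1.92 and for CTTNBP2 0.63, on the log2 scale. The sign of the widening was unchanged for all 3 genes in that fit. For IGSF9B the standard error of the difference was 1.09, against 0.41 without covariates, and no gene passed for the difference (0 of 15057). The airway epithelial markers themselves differed along this contrast (median -8.86 log2 units over 10 tested), as did the granule markers (median -6.56 over 6). The muscle markers had a median of 1.94 over 15 tested, with none passing. The fit therefore cannot separate these marker sums from the widening.

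Length was a second property that moved with the gap. Over 5 equal classes of the tested genes by exonic length, from shortest to longest, the median difference of the gaps was -0.185, -0.109, -0.024, 0.076 and 0.224 on the log2 scale. IGSF9B and LNPEP belong to class 4 and CTTNBP2 to class 5, so all 3 lay where the median gene also had a wider gap. With that trend removed from each library, a step chosen after seeing the data, the difference was 2.01 ± 0.40 for IGSF9B, 1.63 ± 0.35 for LNPEP and 0.52 ± 0.35 for CTTNBP2.

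Promoters are shown because the genes were read out under low oxygen, where the hypoxia-inducible factors bind the core letters ACGTG or GCGTG. CTTNBP2 and LNPEP were matched to the promoter table, with 2 entries each, and IGSF9B was not. Sequences are from RefSeq on GRCh38.p14, each 300 bases long, written 5′ to 3′ on the strand of the gene, from 250 bases before to 50 after the start. Capitals mark ACGTG or GCGTG on either strand. They are the first LNPEP promoter at chr5:96935830-96936129 on the plus strand, the first CTTNBP2 promoter at chr7:117873392-117873691 on the minus strand, and a second CTTNBP2 promoter at chr7:117872171-117872470 on the minus strand.
LNPEP first: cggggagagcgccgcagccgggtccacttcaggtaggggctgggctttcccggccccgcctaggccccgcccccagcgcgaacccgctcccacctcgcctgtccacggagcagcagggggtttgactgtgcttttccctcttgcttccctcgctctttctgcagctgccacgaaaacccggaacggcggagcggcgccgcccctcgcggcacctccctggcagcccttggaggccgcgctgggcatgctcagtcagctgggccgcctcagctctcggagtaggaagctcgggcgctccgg
CTTNBP2 first: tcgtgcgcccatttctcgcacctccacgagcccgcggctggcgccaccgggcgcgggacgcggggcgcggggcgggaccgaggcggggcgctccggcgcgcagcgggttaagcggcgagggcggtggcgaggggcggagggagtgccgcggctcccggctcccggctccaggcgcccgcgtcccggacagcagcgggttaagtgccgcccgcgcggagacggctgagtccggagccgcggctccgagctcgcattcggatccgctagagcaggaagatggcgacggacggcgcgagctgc
CTTNBP2 second: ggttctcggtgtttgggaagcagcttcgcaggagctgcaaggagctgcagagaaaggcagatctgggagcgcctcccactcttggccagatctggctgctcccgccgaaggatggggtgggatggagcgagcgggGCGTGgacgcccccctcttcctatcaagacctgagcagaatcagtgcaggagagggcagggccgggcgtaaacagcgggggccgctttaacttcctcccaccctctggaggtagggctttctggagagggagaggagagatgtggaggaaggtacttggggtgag
The first LNPEP sequence has 29 CpG dinucleotides and 71.3% G and C, and holds neither motif. The second LNPEP entry, at chr5:96958183-96958482 on the plus strand, is not printed: it has 3 CpG dinucleotides and 38.0% G and C and holds neither motif. Both LNPEP windows lie inside the gene of the authors' annotation, which begins at 96935642, so no base before that start was searched. The first CTTNBP2 sequence has 53 CpG dinucleotides and 77.7% G and C and also holds neither, while the second has 13 CpG dinucleotides and a single GCGTG on the strand shown, which begins at base 136. Of 35116 promoters of this length, 21.4% held ACGTG, 36.5% held GCGTG and 48.5% held at least 1 of them on either strand, and the median was 14 CpG dinucleotides. A match, or the lack of one, describes only the letters of these windows.

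The genes beside IGSF9B differed from each other. The nearest tested gene, the long non-coding RNA MIR4697HG, lies 6562 bases past the 3′ end of IGSF9B on the same strand, at chr11:133896435-133901740. Its values were 3351 to 3743 in normoxic dim, 3650 to 4465 in normoxic bright, 3131 to 3386 in hypoxic dim and 5265 to 6475 in hypoxic bright libraries. The hypoxic bright libraries lay above all others. The bright to dim gap of MIR4697HG was 0.18 ± 0.09 in normoxia (limma, adjusted p = 0.346) and 0.89 ± 0.09 at 3% oxygen (limma, adjusted p = 6.15e-05). The difference of 0.71 ± 0.13 log2 units passed (limma, adjusted p = 0.0213), against the 2.15 log2 units of IGSF9B. It lost its call without any 1 of 5 libraries: normoxic dim replicates 2 (adjusted p = 0.0528) and 3 (0.0627), hypoxic dim replicate 2 (0.0682) and hypoxic bright replicates 1 (0.0737) and 2 (0.0599). The difference also lost its call without the mean trend in limma (adjusted p = 0.0771) and with the marker sums as covariates (adjusted p = 0.951). JAM3, a junctional adhesion molecule 111962 bases away on the other side, differed by 0.08 ± 0.14 (limma, adjusted p = 0.796). IGSF9, the paralog of IGSF9B, was at 0 to 4 in every library and was not tested.

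LNPEP sits beside its relatives ERAP2 and ERAP1, peptidases of the endoplasmic reticulum that trim peptides for HLA class I. ERAP1, on the minus strand, shares 283 exon bases with LNPEP in the annotation used, and because the strand of counting is not given in the sources used here, reads from those bases cannot be assigned to one of the pair. ERAP1 averaged 1241 ± 100 in normoxic dim, 1068 ± 19.6 in normoxic bright, 990 ± 140 in hypoxic dim and 1278 ± 73.0 in hypoxic bright cells (SD, n = 3). Its gap was 0.38 ± 0.10 at 3% oxygen (limma, adjusted p = 0.0174) and -0.21 ± 0.10 in normoxia (limma, adjusted p = 0.289). The difference of 0.59 ± 0.15 did not pass (limma, adjusted p = 0.0525), but passed without normoxic dim replicate 1 (0.0421) or hypoxic dim replicates 1 (0.0477) or 3 (0.0134). The call at 3% oxygen was lost without hypoxic dim replicate 2 (adjusted p = 0.0750) or hypoxic bright replicates 1 (0.0724) or 2 (0.0613), with the length trend removed (limma, adjusted p = 0.306) and with the marker sums as covariates (limma, adjusted p = 0.373). ERAP2, 15939 bases away, had a gap of -0.45 ± 0.11 in normoxia (limma, adjusted p = 0.0290) and of 0.07 ± 0.11 at 3% oxygen, and its difference of 0.52 ± 0.16 did not pass (limma, adjusted p = 0.0907) except without hypoxic dim replicate 3 (0.0330). The normoxic call of ERAP2 was lost without any 1 of normoxic dim replicates 1 (adjusted p = 0.0567), 2 (0.124) and 3 (0.0723) and normoxic bright replicates 1 (0.0934) and 2 (0.0570), without the mean trend (limma, adjusted p = 0.0644) and with the marker sums as covariates (limma, adjusted p = 0.257). RIOK2, 131456 bases away on the other side, differed by -0.29 ± 0.16 (limma, adjusted p = 0.315). Its gap was -0.07 ± 0.11 in normoxia (limma, adjusted p = 0.805). At 3% oxygen the gap of RIOK2 passed at -0.35 ± 0.11 (limma, adjusted p = 0.0345), opposite in sign to that of LNPEP. That call was not refitted with libraries left out.

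The tested neighbours of CTTNBP2 were far away and had no passing difference. ST7 lies 480625 bases away and differed by -0.19 ± 0.12 (limma, adjusted p = 0.354). LSM8 lies 310525 bases away and differed by -0.17 ± 0.26 (limma, adjusted p = 0.750). CTTNBP2NL, the paralog of CTTNBP2, averaged 77.0, 69.7, 99.7 and 77.7 in normoxic dim and bright and hypoxic dim and bright cells, in that order. Its difference of -0.20 ± 0.35 did not pass (limma, adjusted p = 0.774).

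**Figure D3:**
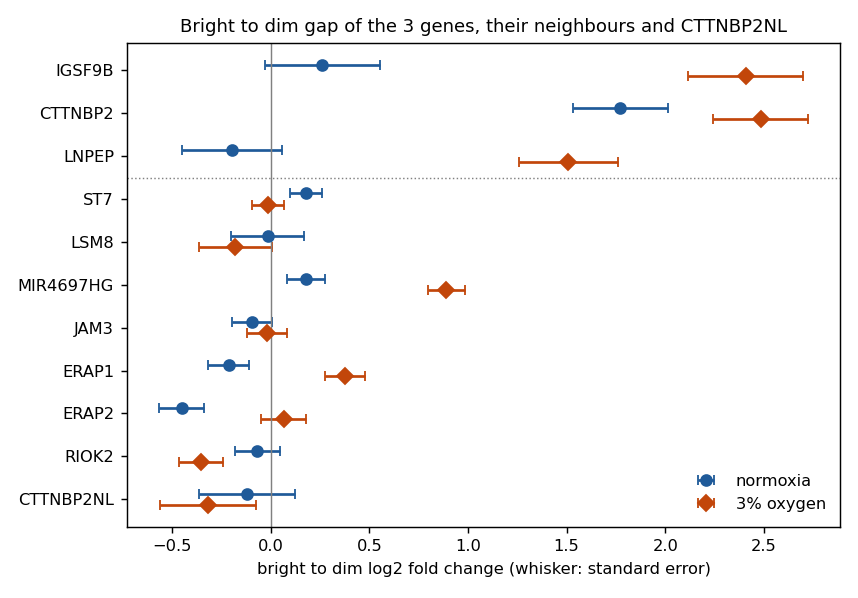
Bright to dim log2 fold change (horizontal axis) in normoxia (circles) and at 3% oxygen (diamonds), with the standard error from limma as a whisker, for the 3 genes above the dotted line and for their neighbours and CTTNBP2NL below it. The points of IGSF9B and LNPEP lie near 0 in normoxia and at 2.41 and 1.51 at 3% oxygen, CTTNBP2 is at 1.77 and 2.48, and of the genes below the line only MIR4697HG had a difference that passed.

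The genes most like each of the 3 were found among 10944 genes with a symbol and a mean of at least 100, by the root mean square difference of centred log2 values over the 12 libraries. This is a description. For IGSF9B, whose own centred values had a root mean square of 0.93, the closest were the zinc finger repressor ZBTB16 at 0.29, the O-mannose kinase POMK at 0.30, the RNA-binding ubiquitin ligase TRIM71 at 0.31 and the integrin subunit ITGB3 at 0.36. ZBTB16 averaged 2385 ± 789, 2822 ± 862, 1116 ± 155 and 3865 ± 410 (SD, n = 3) in normoxic dim and bright and hypoxic dim and bright cells, in that order. LNPEP was the sixth closest to IGSF9B, at 0.38, while from LNPEP, IGSF9B was 174th in likeness.

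LNPEP had the closest companions. ZBED6, a transcription factor derived from a transposase, differed by a root mean square of 0.10, against 0.62 for the centred values of LNPEP itself, and was followed by the neurobeachin relative NBEAL1 at 0.17, the tyrosine kinase FER at 0.18 and the sialidase NEU3 at 0.18. ZBED6 averaged 531 ± 183, 473 ± 116, 261 ± 52.6 and 729 ± 128 (SD, n = 3) in the same order of groups. Normoxic dim replicate 2 and normoxic bright replicate 1 were the high libraries of their groups for ZBTB16, POMK, TRIM71 and ITGB3 as well as for ZBED6, NBEAL1, FER and NEU3.

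CTTNBP2 had a different set of companions. Against 1.11 for its own centred values, NYNRIN differed by 0.31, the postsynaptic scaffold SHANK2 by 0.34, and the zinc finger proteins ZNF704 and ZBTB20 by 0.35 and 0.36. SHANK2 averaged 821 ± 58.5, 2446 ± 86.6, 741 ± 56.5 and 3003 ± 133 (SD, n = 3) in normoxic dim and bright and hypoxic dim and bright cells, in that order, with the bright groups well above both dim groups. From CTTNBP2, IGSF9B was 83rd in likeness and LNPEP 393rd.

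**Figure D4:**
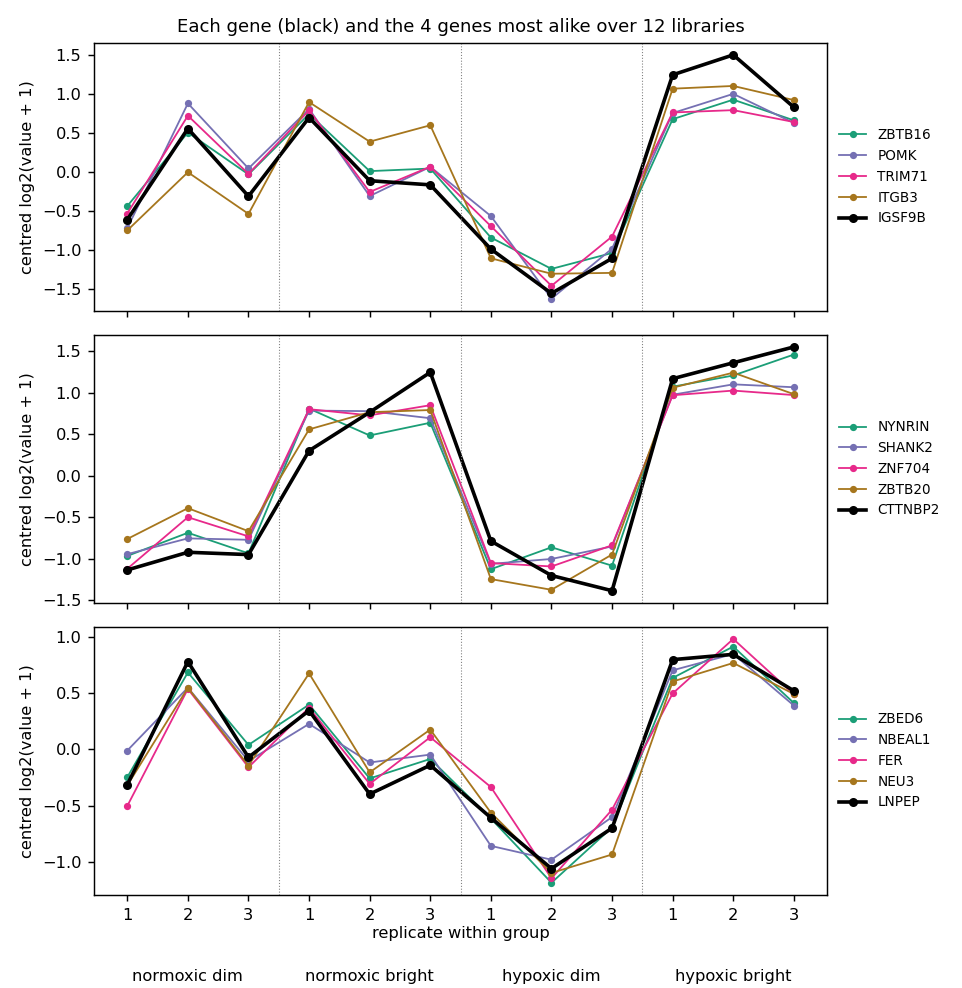
Centred log2(value + 1) (vertical axis) in the 12 libraries, ordered by group and replicate (horizontal axis), for each of the 3 genes in black and the 4 genes most alike in colour. The IGSF9B and LNPEP panels share a peak at normoxic dim replicate 2 and a trough at hypoxic dim replicate 2, while the CTTNBP2 panel steps between dim and bright at both oxygen levels.

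Known partners of the 3 proteins were counted in lists named for their function, beside the medians of all genes, which were -0.01 log2 units for the normoxic gap, -0.03 for the gap at 3% oxygen and 0.00 for the difference and for the averaged oxygen effect. No gene of the 4 partner lists passed in the difference or in the averaged oxygen effect. Partners that passed in a bright to dim gap are named after their values were seen. In normoxia 433 genes (2.88%) passed as higher in bright and 570 (3.79%) as lower, 6.66% in all, and at 3% oxygen 1941 (12.9%) and 2053 (13.6%), 26.5% in all.

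Of 15 inhibitory synapse genes around IGSF9B, 10 were tested, and their median was -0.16 in the normoxic gap, -0.02 at 3% oxygen, 0.21 in the difference and 0.11 in the averaged oxygen effect. At 3% oxygen the presynaptic adhesion molecule NRXN2 was higher in bright cells by 0.98 ± 0.20 (limma, adjusted p = 0.00357) and its partner NLGN1 by 0.52 ± 0.16 (limma, adjusted p = 0.0277). NLGN2, the neuroligin of inhibitory synapses, was lower by 0.89 ± 0.21 log2 units (limma, adjusted p = 0.00814), and the scaffold gene MAGI3 was lower as well (log2 -1.50 ± 0.44, limma, adjusted p = 0.0235). In normoxia the scaffold gene GPHN was lower in bright cells (log2 -0.28 ± 0.08, limma, adjusted p = 0.0494).

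All 23 striatin complex and cortactin genes around CTTNBP2 were tested, with medians of -0.02, 0.04, -0.05 and -0.04 in the same order. The kinase TNIK was higher in bright cells at 3% oxygen by 1.00 ± 0.13 (limma, adjusted p = 0.000269), with means of 2466, 2962, 1817 and 3641 in normoxic dim and bright and hypoxic dim and bright cells, in that order. The scaffold STRN, by 0.52 ± 0.12 (limma, adjusted p = 0.00803), and the kinase MAP4K4, by 0.28 ± 0.07 (limma, adjusted p = 0.00878), were higher too. CTTN, which encodes cortactin itself, had a gap of -1.32 ± 0.43 (limma, adjusted p = 0.0384), and the phosphatase subunits PPP2CA and PPP2CB gaps of -0.31 ± 0.08 and -0.28 ± 0.09 (limma, adjusted p = 0.0137 and 0.0384). In normoxia none of the 23 passed.

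Of 11 M1 aminopeptidases related to LNPEP, 9 were tested, with medians of 0.06, 0.10, 0.15 and 0.08. At 3% oxygen ERAP1, ANPEP (log2 0.21 ± 0.07, limma, adjusted p = 0.0426) and LTA4H (log2 0.22 ± 0.07, limma, adjusted p = 0.0435) were higher in bright cells, and in normoxia ERAP2 was lower. All 17 genes of GLUT4 vesicle traffic were tested, with medians of -0.02, 0.00, -0.03 and -0.02. The Rab GTPase activator TBC1D4 (log2 0.38 ± 0.10, limma, adjusted p = 0.0133) and TNKS, a tankyrase that binds LNPEP (log2 0.53 ± 0.13, limma, adjusted p = 0.0121), were higher in bright cells at 3% oxygen, and VAMP8 (log2 0.54 ± 0.14, limma, adjusted p = 0.0341) in normoxia.

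With the 3 marker sums as covariates none of these partner calls passed (limma, adjusted p = 0.116 for TNIK and higher for the rest), and NLGN2 had a value of 0.05. With the length trend removed, the calls of NLGN1, STRN, MAP4K4, PPP2CB, ANPEP, LTA4H, TNKS, GPHN and VAMP8 were lost as well (limma, adjusted p = 0.0551 to 0.431). TNIK, NRXN2, NLGN2, STRN and MAP4K4 kept their call without any 1 library, while the other partners named here lost it without 1 to 8 of the 12 libraries.

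Of 12 genes known to respond to low oxygen, used as a control of the oxygen label, 3 passed as higher in the averaged oxygen effect and none as lower, with a median of 0.57. Their median was -0.05 in the normoxic gap, 0.69 at 3% oxygen and 0.80 in the difference, against -0.01, -0.03 and 0.00 for all genes. In the gap at 3% oxygen 9 of the 12 passed as higher in bright cells and 1 as lower, against 12.9% and 13.6% of all genes. KDM3A, a histone demethylase, and P4HA1, a collagen prolyl hydroxylase, passed in the difference, by 0.67 ± 0.14 (limma, adjusted p = 0.0335) and 1.10 ± 0.25 (limma, adjusted p = 0.0410). With 1 library left out, KDM3A passed in 6 of 12 fits and P4HA1 in 4 of 12, and neither passed with the marker sums as covariates (limma, adjusted p = 0.951 for both). The list summed to 10278 to 12129 in normoxic libraries, 11701 to 13682 in hypoxic dim and 13843 to 22351 in hypoxic bright libraries. Within hypoxic bright it was lowest in replicate 3, the library that was also lowest of its group for IGSF9B and LNPEP and highest for CTTNBP2.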

How the data were processed

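RNA sequencing of mRNA from total RNA gave 12 libraries in 4 groups of 3. Per the submitters' processing notes, Trimmomatic 0.39 and STAR 2.4.2a with hg38 were used. Which tool counted the reads, with what annotation and strand setting, is not given in the sources used here. What the authors deposited is a score for each gene in each library. As read from the values, counts had been scaled by size factors of the median-of-ratios kind (median ratio to the geometric mean 1.003 to 1.0042) and then rounded. Being normalized, they were given no count test. Exonic length is another column that the authors deposited.

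A gene was tested when 3 or more libraries had a value of 10 or more (15057 genes, with 13338 left out). In R 4.3.3, limma 3.58.1 fitted group means of log2(value + 1), with empirical Bayes moderation, a mean trend and 8 residual degrees of freedom. Tests were 2-sided and Benjamini-Hochberg adjusted over all genes, with a threshold of 0.05. Folds are on the log2(value + 1) scale and understate the change of low genes. The procedure was tested on simulated data. Tables were joined in Python 3.11.15.

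The 3 genes and all gene lists were chosen with earlier results of these data known. Named were the 3 genes, IGSF9, CTTNBP2NL, ERAP1, ERAP2, list members passing in the difference or the averaged oxygen effect (at most 4 per list and comparison), the 4 most alike genes and the nearest tested neighbours. LOC101929747 is named because it shares exon bases with LNPEP. Other list members were chosen after their values were seen, and of the oxygen controls only those passing in the difference are named. No 2 libraries agreed within counting noise (mean chi-square per gene within groups 4.72 to 57.4). Alternatives were other pseudocounts, filters, scaling and moderation, the replicate number as a block, marker sums as covariates, leaving out each library and, added after seeing the data, removal of the length trend.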

Additional observations from a re-analysis of the deposited data

Results flagged for a closer look

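IGSF9B was flagged because the oxygen effect had opposite directions in the 2 subsets: every hypoxic bright library lay above every normoxic bright one, and every hypoxic dim library below every normoxic dim one. The effects differed by 2.15 log2 units. LNPEP was flagged for the same pattern, with a difference of 1.71 log2 units. Both genes were chosen for this difference, so it is given as a description and was not tested.

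KDM3A and P4HA1 were flagged because their oxygen effect differed between bright and dim cells by limma, by 0.67 and 1.10 log2 units. Both calls were lost with single libraries left out: KDM3A without normoxic dim replicates 2 or 3, normoxic bright replicate 2, hypoxic dim replicate 2 or hypoxic bright replicates 1 or 2 (limma, adjusted p up to 0.0928), and P4HA1 without these, normoxic dim replicate 1 or normoxic bright replicate 3 (up to 0.104). Neither passed without the mean trend (limma, adjusted p = 0.0911 and 0.111) or with the marker sums as covariates (0.951 for both). KDM3A was also lost with the length trend removed (0.0601), and P4HA1 with a pseudocount of 10 (0.0559), no filter (0.0619) and a filter at a mean of 50 (0.0512).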

How the results depend on the processing

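The widening of the gap was positive for IGSF9B, LNPEP and CTTNBP2 in all alternatives run. With 1 library left out it ranged from 1.81 to 2.43, 1.38 to 1.93 and 0.48 to 0.95 log2 units, and the gap at 3% oxygen from 2.24 to 2.59, 1.37 to 1.61 and 2.35 to 2.65. The normoxic gap ranged from -0.017 to 0.60, -0.42 to 0.13 and 1.53 to 2.01, and the averaged oxygen effect from -0.14 to 0.15, -0.18 to 0.094 and 0.12 to 0.35. The averaged effect was positive without normoxic dim replicate 2, normoxic bright replicate 1 and hypoxic dim replicate 2 for IGSF9B (0.15, 0.12 and 0.06) and LNPEP (0.094, 0.035 and 1e-04), and without hypoxic bright replicate 3 for IGSF9B (0.07). It passed for none of the 3 genes in any alternative.

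With marker sums as covariates (5 residual degrees of freedom), IGSF9B had -0.15 in normoxia, 3.11 at 3% oxygen, 3.26 for the difference and 0.036 for the averaged effect. LNPEP had 0.032 for the averaged effect, NLGN2 a gap of 0.053 and JAM3 a difference of -0.25. Limma then called 58 genes in normoxia, 128 at 3% oxygen, 0 for the difference (653 at an unadjusted p under 0.05) and 0 for the averaged effect (1083).

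The 355 genes called for the difference became 162 with a pseudocount of 10, 164 with a filter at a mean of 50, 43 without the mean trend and 188 with the length trend removed (145 lower, 43 higher). The 34 of the averaged effect became 15 without the mean trend. Leaving out 1 library gave 613 to 1281 calls for the normoxic gap, 2291 to 4341 at 3% oxygen, 44 to 1516 for the difference and 7 to 63 for the averaged effect. For the difference, removing normoxic dim replicates 1, 2 or 3 gave 651, 68 and 72, normoxic bright replicates 1 or 2 gave 635 and 55, hypoxic dim replicates 2 or 3 gave 69 and 1516, and hypoxic bright replicates 1 or 2 gave 44 and 127. Single libraries also turned the sign of the difference for CTTNBP2NL (-0.43 to 0.012, the latter without normoxic dim replicate 3) and JAM3 (-0.016 to 0.17, the former without hypoxic dim replicate 1). The cause of these shifts was not tested.

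Whether the replicate numbers pair the libraries is not settled by the values. Deviations of 18 same-numbered pairs correlated between -0.229 and 0.448 across genes, and 7 exceeded 0.1. The mean was 0.079 for these pairs and -0.038 for pairs with different numbers. With the number as a replicate block, 917, 3782, 329 and 39 genes were called in place of 1003, 3994, 355 and 34. GPHN, VAMP8, ANPEP and LTA4H then did not pass (adjusted p = 0.0830, 0.0507, 0.0646 and 0.0680). Depth limits CTTNBP2 in dim cells, at 36 to 55 units.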
